A study of Mus musculus with 18 samples.

Results

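The genes described here encode the initiation and elongation factors of cytosolic translation, measured by RNA sequencing in naive and memory-phenotype CD8 T cells of Dock2-deficient and wild-type mice. They were taken by name, as every gene whose symbol begins with Eif followed by a digit from 1 to 6 or with Eef followed by 1 or 2, without the eIF2 kinases (Eif2ak genes), Eif2s3x, Eif2s3y and numbered pseudogenes. Of 46983 genes in the table, 72 symbols matched the pattern and 60 were left after these exclusions. A value of at least 10 was required in at least 4 of 18 libraries, which 55 genes met, and these 55 are the translation factors of the text. The 5 under this limit were Eef1a2, Eif4e1b, Eif4ebp3, Eif2c5 and Eif5al3-ps, of which Eif4ebp3 had the highest mean with a normalized expected count of 2.44. Each of the 55 reached 10 in at least 1 library of all 4 groups, so none passed through a single group. Eif4e3 and Eif5a2 stood nearest to the limit, with values of at least 10 in 7 and 12 libraries.

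The groups were 5 libraries of memory CD8 T cells and 5 of naive CD8 T cells from mice of the genotype Dock2-Hsd/Hsd (Dock2-/-), and 4 libraries of memory and 4 of naive CD8 T cells from wild-type mice. Memory and naive cells carry the marks CD44hi and CD44lo in the labels, and no treatment or age is given. DOCK2 is an exchange factor for the GTPase Rac in blood cells. The strain field names C57BL/6J for every library, but C57L6NHsd appears in the description of each Dock2-deficient library, so substrain and genotype cannot be told apart. The labels do not say that the libraries of a group came from separate mice, so a p-value here speaks of the spread among libraries, some of which may be technical.

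Initiation of translation starts when eIF2 carries the initiator tRNA, as a complex with GTP, to the small ribosomal subunit together with eIF1, eIF1A, eIF3 and eIF5. The eIF4F complex of the cap-binding protein eIF4E, the scaffold eIF4G and the helicase eIF4A brings the mRNA, and 4E-binding proteins hold eIF4E back until mTORC1 phosphorylates them. During elongation eEF1A delivers aminoacyl-tRNAs, the eEF1B subunits recharge eEF1A with GTP, and eEF2 moves the ribosome along the mRNA. Resting T cells hold translation low and raise it on activation, and many mRNAs of elongation factors and ribosomal proteins belong to the TOP class, whose transcripts begin with a pyrimidine-rich tract that couples them to mTORC1.

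The libraries held 2215987 to 8257768 expected reads, of which the ribosomal RNA gene Rn18s-rs5 took 37.0% to 69.4%. Cd44 was higher in memory than in naive cells in both genotypes, by 5.58 ± 0.52 in Dock2-deficient and 4.71 ± 0.58 in wild-type cells on the log2 scale (SE, limma adjusted p = 4.3e-07 and 2.1e-05). The groups carry this same mark in the labels. The 6 memory markers, Cd44 among them, summed to at least 5263 in every memory library and at most 1018 in every naive library. The 5 naive markers overlapped between states, at 4106 to 6731 in memory and 5416 to 7507 in naive Dock2-deficient libraries. In wild-type libraries they summed to 3983 to 5987 in memory and 5555 to 6243 in naive cells. Dock2 itself ranged from 61.0 to 279.6 in Dock2-deficient memory cells, against 399.7 to 844 in wild-type memory cells (log2 fold change -1.64, limma adjusted p = 0.121), and from 171 to 373 in Dock2-deficient naive cells, against 288 to 514 in wild-type naive cells (-0.71, limma adjusted p = 0.841). The 5 markers of CD8 T cells summed to at least 5195 in every library, while the markers of B cells, CD4 T cells, NK cells and myeloid cells summed to at most 57.5, 28.0, 12.4 and 44.5. Those of gamma delta T cells summed to 19.5 to 45.7 in Dock2-deficient naive libraries, against 3.63 to 5.65 in wild-type naive libraries. In memory libraries they summed to at most 18.9. Those of erythroid cells summed to at most 51.9 except in the Dock2-deficient naive group, which reached 329.5. Xist was under 100 in 4 of 5 libraries of each Dock2-deficient group and in none of the wild-type libraries, so the sexes are not balanced between genotypes. In such bulk samples, fewer cells of a type and less RNA per cell cannot be told apart.

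Among the translation factors, 4 of the 6 eEF1 and eEF2 genes stood highest per kilobase of transcript. Averaged over 18 libraries, Eef1a1 had 18162 normalized expected counts per kilobase, Eef1b2 3149, Eef2 2176 and Eef1g 949. The next were subunits of eIF3, the large scaffold on the small ribosomal subunit, with 606 for Eif3h and 532 for Eif3k. The elongation factor gene Eif5a followed with 488. The lowest was Eif5a2, the paralog of Eif5a, with 2.55. The 55 factors together took 2.62% to 5.93% of the expected reads that came from neither Rn18s-rs5 nor mitochondrial genes, and Eef1a1 alone 1.29% to 3.93%.

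**Figure D1:**
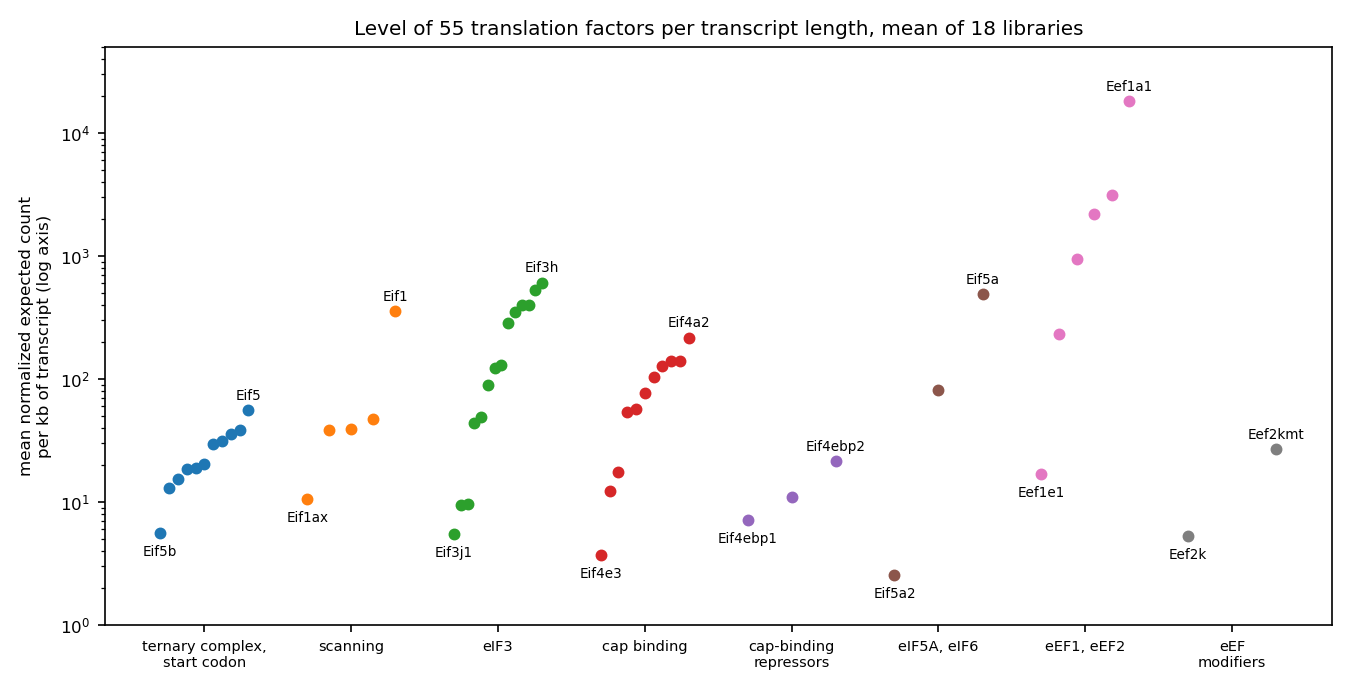
Mean normalized expected count per kilobase of transcript over 18 libraries (log axis) for the 55 translation factors, 1 point per gene, in columns by role. The eEF1 and eEF2 genes span the widest range, with Eef1a1 at 18162 on top, and Eif5a2 at 2.55 is the lowest point.

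Because elongation factor mRNAs are the classic TOP transcripts, the sequence around the start site is shown for the 4 factors with a mean of at least 1000 that had an entry in the RefSeq promoter table (GRCm38.p6, which held 43 of the 55). Each run covers the last 30 bases before and the first 30 after the annotated start, 5′ to 3′ on the gene's strand, with the pyrimidine motif CTCTT in capitals. The windows lie at chr9:78481695-78481754 (minus strand) for Eef1a1, chr1:63176801-63176860 (plus strand) for Eef1b2, chr10:81176601-81176660 (plus strand) for Eef2 and chr7:108934385-108934444 (plus strand) for Eif3f.
Eef1a1: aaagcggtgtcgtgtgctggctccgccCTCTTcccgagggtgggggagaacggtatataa
Eef1b2: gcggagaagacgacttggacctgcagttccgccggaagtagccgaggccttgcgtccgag
Eef2: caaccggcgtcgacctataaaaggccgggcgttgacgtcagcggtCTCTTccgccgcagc
Eif3f: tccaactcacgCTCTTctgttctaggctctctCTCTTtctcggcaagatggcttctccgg
The motif stood in the windows of Eef1a1, Eef2 and Eif3f and not in that of Eef1b2. It was the only motif searched, on both strands. On the gene's strand it was found in 5 of 43 factors (11.6%), against 9.60% of 27025 genes with a promoter entry and 8.37% of the 6866 of them that were tested. On the opposite strand the shares were 2.33%, 10.3% and 7.11%. A match is a run of letters in a window, and its use was not measured. Whether the annotated starts are those used in these cells was not measured either, so no match can be taken as a TOP tract. In the Eef1a1 window the motif lies before the TATA-box-like run tatataa that ends the window.

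Across all 5 comparisons, no translation factor passed an adjusted p of 0.05 in the limma fit to 9437 genes. The first question was whether translation factor mRNAs differ between memory and naive cells. In Dock2-deficient mice 0 of 55 passed (2.82% of all genes did) and in wild-type mice 0 of 55 passed (2.52% of all genes). The second was whether they differ between genotypes. In memory cells 0 of 55 passed (0.053% of all genes) and in naive cells 0 of 55 passed (0.138% of all genes). The interaction, which asks whether the memory difference itself differs between genotypes, gave 0 of 55 (0.0318% of all genes). The smallest adjusted p of a factor was 0.132 for Dock2-deficient memory against naive cells, 0.248 for wild-type memory against naive cells, 0.259 between genotypes in memory cells, 0.619 in naive cells and 0.819 for the interaction.

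At an unadjusted p under 0.05, the genotype comparison in memory cells held the most factors, with 10 higher in Dock2-deficient cells (all genes 7.92%) and 2 lower (8.47%). The 10 were Eef1b2, Eef1g, Eef1d, Eif3e, Eif3f, Eif3h, Eif3k, Eif2b1, Eif2b3 and Eif5a2, and the 2 were Eif1ad and Eif4enif1. For Dock2-deficient memory against naive cells 4 were higher (6.96%), namely Eef1g, Eef1b2, Eif2s2 and Eif1, and Eif4e3 was lower (6.39%). Wild-type memory against naive cells had Eif3j2 higher (6.79%) and 0 lower (5.29%), the genotype comparison in naive cells had Eif2b2 higher (3.14%) and 0 lower (2.97%), and the interaction had 0 in either direction (2.17% and 3.04%). The genotype comparison in memory cells, the comparison of Dock2-deficient memory with naive cells and the interaction share the 5 Dock2-deficient memory libraries, so their values are not independent of each other.

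The size of difference that the data allow can be read from the 95% intervals. An interval lay wholly within a 2-fold difference in either direction for 33 of 55 factors between genotypes in memory cells (35.0% of all genes), 43 in naive cells (45.4%), 43 between Dock2-deficient memory and naive cells (43.8%), 41 between wild-type memory and naive cells (37.3%) and 19 for the interaction (16.8%). Of the 39 factors with a mean of at least 50, the numbers were 27, 37, 35, 35 and 17. Only 3840 of the 9437 genes tested had such a mean, and their share was not counted. The factors and all genes are therefore not compared here at a like level. The median log2 fold change of the 55 was 0.28 between genotypes in memory cells, beside 0.01 over all genes, and 0.09 in naive cells, beside 0.00. It was 0.16 between Dock2-deficient memory and naive cells, beside -0.01, and 0.04 between wild-type memory and naive cells, beside -0.02. Without Dock2-deficient memory library 5 the median was 0.16 between genotypes in memory cells and 0.11 between Dock2-deficient memory and naive cells. A difference above 0 was seen in 42, 39, 42 and 29 of 55 factors in these comparisons (50.9%, 50.1%, 49.3% and 47.9% of all genes), and in 40 of 55 for the interaction (50.5%), whose median was 0.19. With a library left out the interaction median ranged from 0.10 (without wild-type naive library 4) to 0.29 (without Dock2-deficient memory library 4). Without wild-type naive library 1, 29 of 55 were above 0 between genotypes in naive cells (49.7% of all genes). Within groups the median factor varied less than the median gene. Median standard deviations were 0.34 on the log2 scale for the 39 factors and 0.41 for the 3840 genes averaging at least 50. These sets were not matched for level above that limit. Of the eEF1 and eEF2 genes among the 39, Eef1a1 (0.61), Eef1b2 (0.58) and Eef1g (0.49) lay above 0.41. Eef2 (0.41) was close to it and Eef1d (0.34) lay below.

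**Figure D2:**
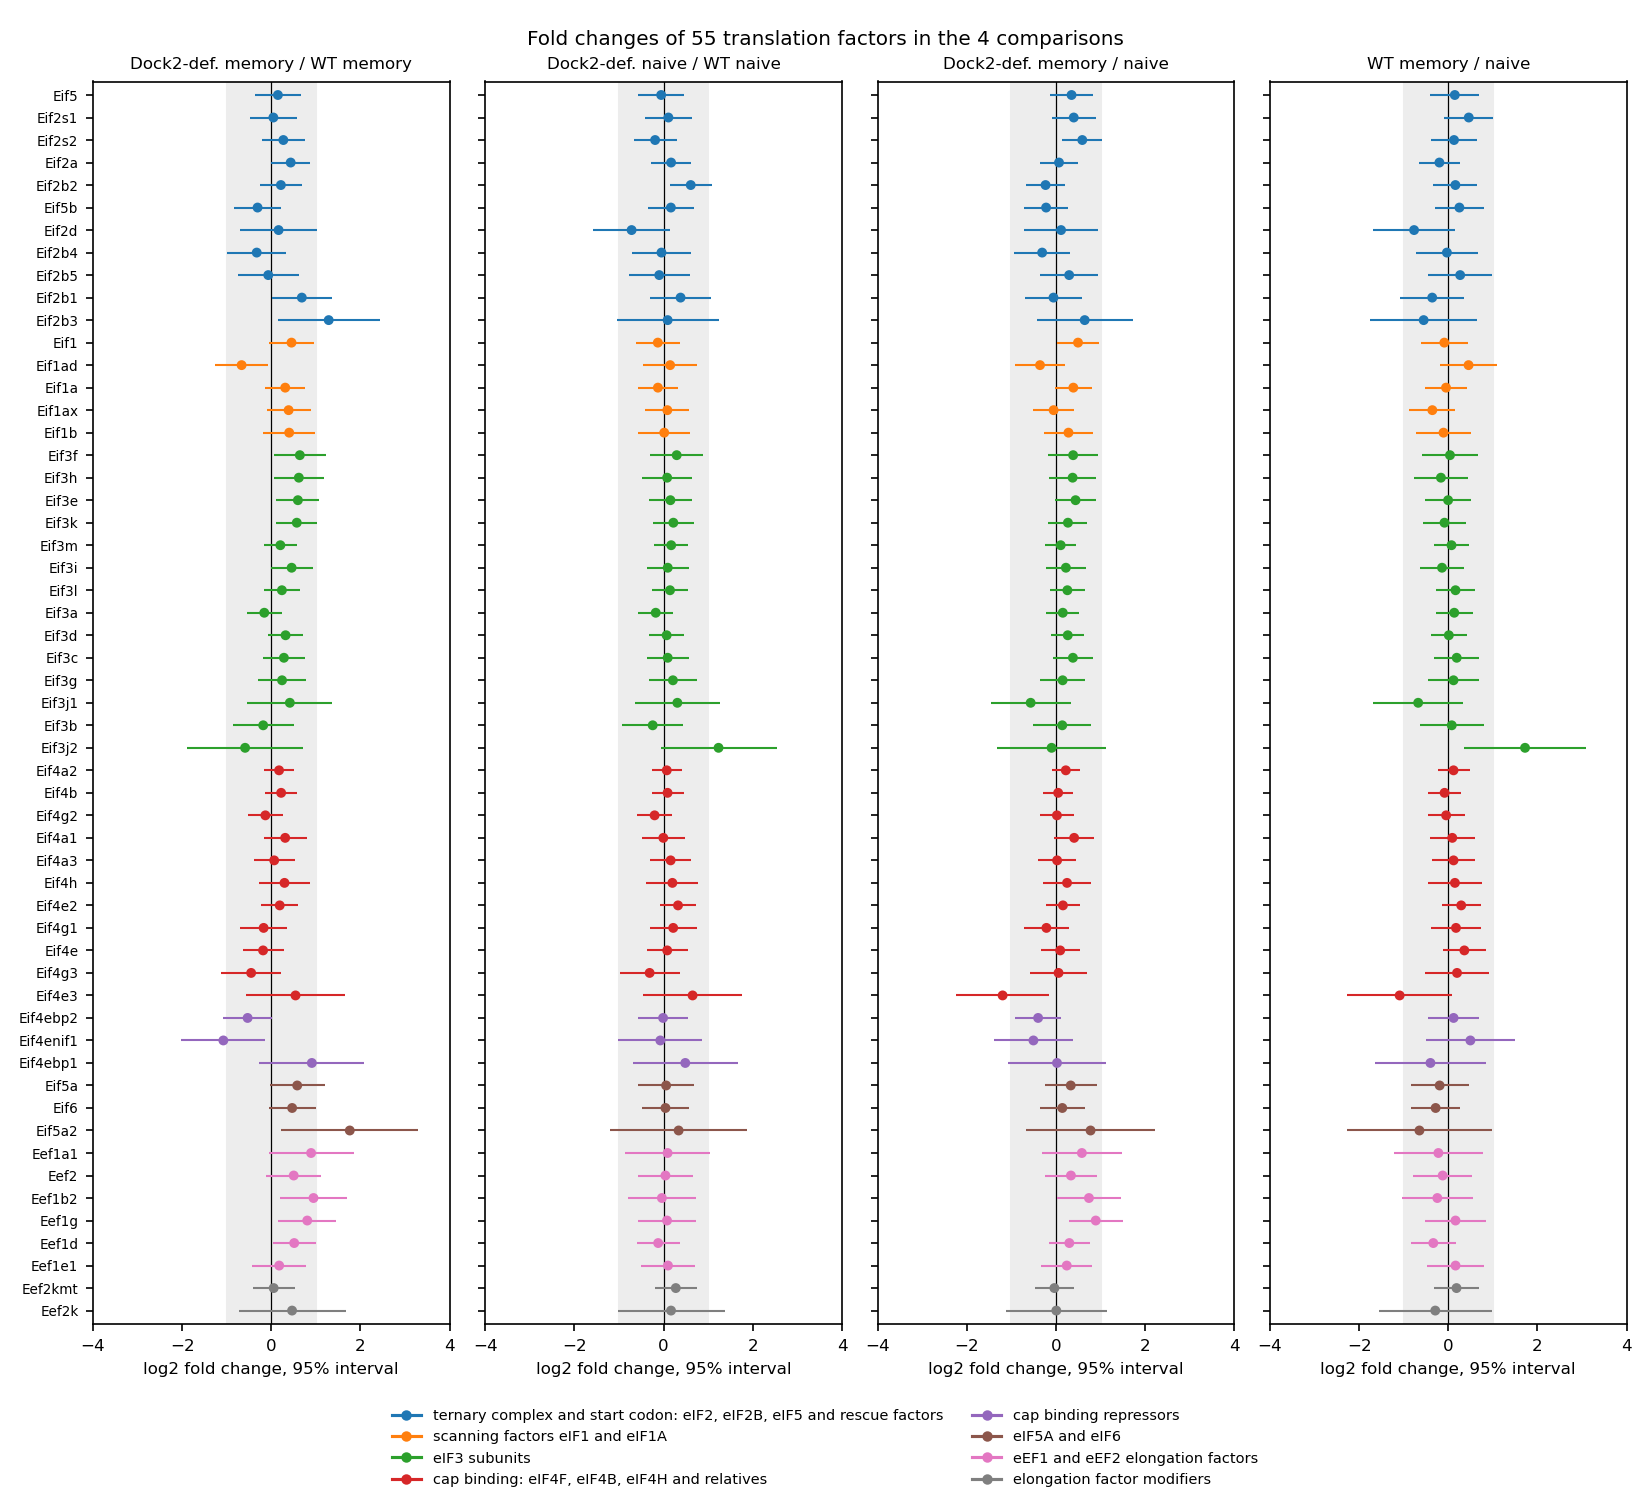
Log2 fold changes of the 55 translation factors (points) with 95% intervals (lines) in the comparisons Dock2-deficient over wild-type memory, Dock2-deficient over wild-type naive, Dock2-deficient memory over naive and wild-type memory over naive cells, coloured by role, the grey band marking a 2-fold difference in either direction. In the first panel 33 of 55 intervals lie inside the band, and the largest differences belong to genes with low values such as Eif5a2 and Eif2b3.

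Between genotypes in memory cells, the 3 highest fold changes among factors with a mean of at least 50 belonged to the elongation factors Eef1b2, Eef1a1 and Eef1g, though none passed the test. Eef1a1 (ENSMUSG00000037742, chr9:78478449-78489151, minus strand, mm10) encodes eEF1A1, which brings aminoacyl-tRNA to the ribosome. Its normalized expected count was 21207, 39117, 64442, 25941 and 89504 in Dock2-deficient memory libraries 1 to 5 and 25601, 22895, 20341, 39535 and 35171 in Dock2-deficient naive libraries 1 to 5. It was 23673, 19233, 32142 and 17202 in wild-type memory libraries 1 to 4 and 16019, 30238, 40378 and 23865 in wild-type naive libraries 1 to 4. Dock2-deficient memory libraries 5 and 3 were the highest of all 18, while the other 3 of that group lay within the range of the other groups, so every pair of groups overlapped. The log2 fold change was 0.89 ± 0.46 (SE, 95% interval -0.06 to 1.85, adjusted p = 0.329) between genotypes in memory cells and 0.09 ± 0.46 (95% interval -0.87 to 1.04) in naive cells. Between memory and naive cells it was 0.58 ± 0.43 (95% interval -0.32 to 1.48) in Dock2-deficient and -0.22 ± 0.48 (95% interval -1.23 to 0.78) in wild-type mice.

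Eef1b2 (ENSMUSG00000025967, chr1:63176825-63180486, plus strand), an exchange factor that recharges eEF1A, was likewise highest in the Dock2-deficient memory group. It was 3199, 5386, 8616, 3065 and 11019 in Dock2-deficient memory and 3078, 2749, 2461, 4471 and 4151 in Dock2-deficient naive libraries, and 3152, 2298, 3896 and 2347 in wild-type memory and 1982, 3801, 5317 and 3269.9 in wild-type naive libraries. The 2 highest values were again Dock2-deficient memory libraries 5 and 3. Its log2 fold change between genotypes in memory cells was 0.95 ± 0.37 (SE, 95% interval 0.19 to 1.71, adjusted p = 0.259), the highest of the factors with a mean of at least 50, and between Dock2-deficient memory and naive cells it was 0.74 ± 0.34 (SE, 95% interval 0.02 to 1.46, adjusted p = 0.358). In naive cells the genotypes differed by -0.04 ± 0.37 (95% interval -0.80 to 0.72).

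Eef1g (ENSMUSG00000071644, chr19:8967041-8978479, plus strand), the subunit that holds the exchange complex together, was 1340.0, 2392, 3424, 1664 and 5247 in Dock2-deficient memory libraries, against 1133, 1317, 1122, 1634 and 1589.5 in Dock2-deficient naive libraries. In wild-type cells it was 1392, 1209.9, 1684 and 1449 in memory and 864, 1385, 1711 and 1283 in naive libraries. Dock2-deficient memory libraries 2 to 5 lay above every Dock2-deficient naive library, and library 1 among them. This difference of 0.89 ± 0.29 (SE, 95% interval 0.28 to 1.50, adjusted p = 0.132) had the smallest adjusted p of any factor in any of the 5 comparisons, and without Dock2-deficient memory library 1 it was 1.12 with an adjusted p of 0.0317 in limma. Without library 5 of that group it was 0.62, with an adjusted p of 0.332. A processed pseudogene with 99.63% identity, Gm4366, had a mean of 163 normalized expected counts beside 1769 for Eef1g, so a small share of its reads may be placed either way. Between genotypes in memory cells Eef1g differed by 0.81 ± 0.31 (SE, 95% interval 0.16 to 1.45, adjusted p = 0.259).

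Eef2 (ENSMUSG00000034994, chr10:81176631-81182498, plus strand) encodes eEF2, the translocase of the ribosome. Its values were 5592, 7691, 11743, 4567 and 12959 in Dock2-deficient memory and 6619.9, 6530.2, 5358, 6148 and 6563 in Dock2-deficient naive libraries, and 5481, 5271, 7059 and 4637 in wild-type memory and 4714, 7009.9, 7920.5 and 5126 in wild-type naive libraries. Libraries 5 and 3 of the Dock2-deficient memory group were again highest, and library 4 of that group was the lowest of all 18. The genotypes differed by 0.50 ± 0.30 (SE, 95% interval -0.12 to 1.12, adjusted p = 0.389) in memory and by 0.04 ± 0.30 (95% interval -0.58 to 0.66) in naive cells. Of the remaining elongation genes, Eef1d, another exchange factor, averaged 451 ± 159.5 in Dock2-deficient memory and 300.1 ± 28.6 in wild-type memory libraries (SD, n = 5 and 4), a log2 fold change of 0.51 ± 0.23 (SE, 95% interval 0.03 to 0.997, adjusted p = 0.293). Between wild-type memory and naive cells Eef1d had a log2 fold change of -0.34, with means of 300.1 ± 28.6 in memory and 385 ± 87.8 in naive libraries (SD, n = 4 each). Eef1e1, a component of the multi-tRNA-synthetase complex, differed by 0.18 ± 0.29 (95% interval -0.43 to 0.79) between genotypes in memory cells. All 6 elongation genes had a fold change above 0 between genotypes in memory cells, with a median of 0.66, and between Dock2-deficient memory and naive cells, with a median of 0.46. In wild-type cells 2 of 6 were above 0 between memory and naive cells, with a median of -0.17, and in naive cells 4 of 6 between genotypes, with a median of 0.06.

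**Figure D3:**
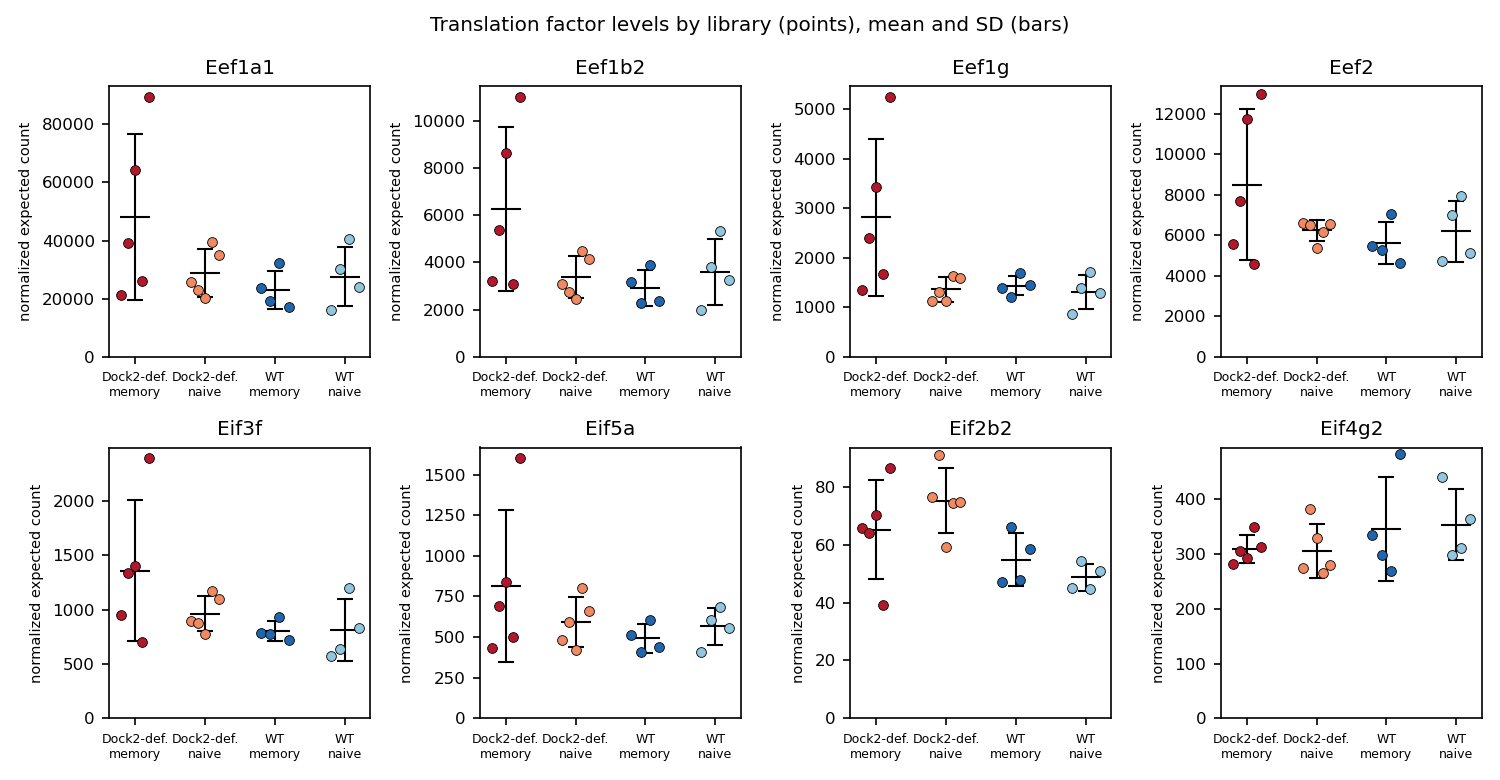
Normalized expected count of 8 translation factors in each library (points, drawn in order of replicate number), with the mean (wide bar) and SD (whiskers) of each group, Dock2-deficient memory (n = 5), Dock2-deficient naive (n = 5), wild-type memory (n = 4) and wild-type naive (n = 4). In Eef1a1, Eef1b2, Eef1g, Eef2 and Eif5a the wide spread of the Dock2-deficient memory group comes from its libraries 5 and 3, whereas Eif4g2 lies between 265 and 483 in every library.

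The interaction for the elongation genes was measured less tightly than either memory comparison. It was 0.99 ± 0.52 (95% interval -0.09 to 2.06) for Eef1b2, 0.80 ± 0.65 (95% interval -0.55 to 2.15) for Eef1a1 and 0.73 ± 0.44 (95% interval -0.18 to 1.64) for Eef1g, each with an adjusted p of 0.819 or above in limma. These were the 3 highest among factors with a mean of at least 50, and each interval included 0. A positive value means that memory cells exceeded naive cells by more in Dock2-deficient than in wild-type mice.

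The elongation factor modifiers were low. Eef2kmt, the lysine methyltransferase of eEF2, averaged 60.7 ± 15.2 in Dock2-deficient memory, 61.6 ± 10.2 in Dock2-deficient naive, 57.5 ± 6.55 in wild-type memory and 51.1 ± 11.7 in wild-type naive libraries (SD, n = 5, 5, 4 and 4). Its fold changes lay between -0.04 and 0.27 on the log2 scale in the 4 comparisons of groups. Eef2k, the kinase that inhibits eEF2, was under 10 in 3 libraries, and its interval between genotypes in memory cells was -0.73 to 1.67, which holds both no difference and a 2-fold higher level.

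The eIF3 subunits had 14 genes among the factors, of which Eif3f, Eif3h, Eif3e and Eif3k had the highest fold changes between genotypes in memory cells. Eif3f (ENSMUSG00000031029, chr7:108934417-108942951, plus strand), a subunit with an MPN domain, was 948, 1339.9, 1399, 703 and 2401 in Dock2-deficient memory and 897, 875, 779, 1174 and 1100.3 in Dock2-deficient naive libraries, and 783, 776, 933 and 719 in wild-type memory and 571, 640.1, 1203 and 836 in wild-type naive libraries. Dock2-deficient memory library 5 was the highest of all 18, and library 4 of that group lay below every wild-type memory library while the other 4 lay above. The log2 fold change was 0.64 ± 0.28 (SE, 95% interval 0.05 to 1.23, adjusted p = 0.288) between genotypes in memory cells and 0.29 ± 0.28 (95% interval -0.29 to 0.88) in naive cells. Its partner subunit Eif3h differed by 0.62 in memory cells, and Eif3e and Eif3k, subunits with PCI domains, by 0.60 and 0.57, each with an adjusted p of 0.259 or above in limma.

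Eif3e was 488, 699, 997, 676 and 1087 in Dock2-deficient memory libraries, against 464, 448, 588 and 516 in wild-type memory libraries. Library 1 of the Dock2-deficient group lay inside the wild-type range and the other 4 above it. The core scaffold subunits Eif3a and Eif3b had fold changes below 0, with intervals that included 0. Eif3a, on which the complex is built, was 193, 215, 253, 215 and 239 in Dock2-deficient memory libraries and 212, 202, 249 and 355 in wild-type memory libraries, a log2 fold change of -0.16 ± 0.19 (95% interval -0.55 to 0.24). Wild-type memory library 4 held the highest Eif3a value of the 18 libraries. Eif3b, the other core scaffold, differed by -0.18 ± 0.33 (95% interval -0.87 to 0.50), and Eif3c by 0.28 ± 0.23 (95% interval -0.19 to 0.76). Over the 14 genes, 11 had a fold change above 0 between genotypes in memory cells (median 0.30), 12 in naive cells (median 0.15), 12 between Dock2-deficient memory and naive cells (median 0.24) and 9 between wild-type memory and naive cells (median 0.05).

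Eif3j1 and Eif3j2, which encode the loosely bound j subunit, had the widest intervals of the eIF3 genes. Their transcripts are 99.41% identical over 2379 bases, so reads could be split between them in either way. Eif3j2 was 27.1, 28.2, 11.3 and 73.4 in wild-type memory and 5.12, 1.59, 20.4 and 17.7 in wild-type naive libraries, and its log2 fold change of 1.72 ± 0.66 (SE, 95% interval 0.35 to 3.09, adjusted p = 0.248) was the highest of any factor in that comparison. Eif3j1 was 58.0, 13.4, 17.2 and 7.04 in wild-type memory and 30.9, 32.4, 17.3 and 40.5 in wild-type naive libraries, with a log2 fold change of -0.68. Wild-type memory library 4 held both the highest Eif3j2 and the lowest Eif3j1 value of the 18 libraries, and the groups of each gene overlapped.

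In naive cells 1 factor (1.82% of the factors) had genotype groups that separated, a share close to that of all genes given below. It was Eif2b2, a ternary complex gene, and 1 gene at such a share does not set that role apart. Eif2b2 (ENSMUSG00000004788, chr12:85219481-85226628, plus strand) encodes the beta subunit of eIF2B, the exchange factor that recharges eIF2 with GTP. It was 76.4, 91.0, 59.4, 74.6 and 74.7 in Dock2-deficient naive libraries, against 45.1, 54.2, 44.7 and 50.8 in wild-type naive libraries. Every Dock2-deficient naive library lay above every wild-type naive library, as was so of 1.46% of all genes in this comparison. The difference was 0.61 ± 0.23 (SE, 95% interval 0.14 to 1.08, adjusted p = 0.619), and its direction was the same in every alternative tried. In memory cells Eif2b2 was 65.7, 64.2, 70.5, 39.2 and 86.7 in Dock2-deficient and 47.3, 66.1, 47.7 and 58.6 in wild-type libraries, which overlapped (0.21 ± 0.23 (95% interval -0.26 to 0.68)). No other factor had groups that did not overlap in naive cells in either direction (1.25% of all genes for the lower direction).

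In memory cells 2 factors lay higher in every Dock2-deficient than in every wild-type library (2.06% of all genes) and 0 lower in every one (2.38%). Eif2b3, the gamma subunit of eIF2B, was 30.2, 24.7, 18.9, 39.2 and 25.7 in Dock2-deficient and 16.6, 10.1, 15.5 and 4.37 in wild-type memory libraries (1.29 ± 0.55 (SE, 95% interval 0.14 to 2.43, adjusted p = 0.283)). Eif5a2 was 17.8, 14.8, 15.5, 29.8 and 15.0 in Dock2-deficient and 4.97, 10.7, 12.9 and 0 in wild-type memory libraries (1.76 ± 0.74 (SE, 95% interval 0.22 to 3.30, adjusted p = 0.279)). Both are low genes, with values under 10 in some libraries, and their intervals run from close to no difference to more than 4-fold. Between memory and naive cells no factor had groups that did not overlap, in Dock2-deficient mice (2.35% of all genes higher and 1.58% lower) or in wild-type mice (4.99% and 3.27%).

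The other eIF2B subunits, Eif2b1, Eif2b4 and the catalytic Eif2b5, had fold changes of 0.68, -0.33 and -0.07 between genotypes in memory cells on the log2 scale. The subunits of eIF2 itself were Eif2s1, the alpha subunit that stress kinases phosphorylate, and Eif2s2, the beta subunit. Eif2s1 was 117, 108, 126 and 205 in wild-type memory libraries, against 83.1, 105, 144 and 72.3 in wild-type naive libraries, and its difference of 0.46 ± 0.26 (SE, 95% interval -0.09 to 1.01, adjusted p = 0.538) was the highest among factors with a mean of at least 50 in that comparison, next to 0.45 for Eif1ad. Wild-type memory library 4 was the highest of all 18, the groups overlapped, and without that library the difference was 0.26. In Dock2-deficient mice Eif2s1 differed by 0.40 ± 0.24 (95% interval -0.09 to 0.89) between memory and naive cells.

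Eif2s2 was 111, 82.4, 98.0, 57.9 and 122 in Dock2-deficient memory libraries, against 53.0, 57.1, 61.4, 69.8 and 61.3 in Dock2-deficient naive libraries. All memory libraries except library 4 lay above every naive library. The difference was 0.59 ± 0.22 (SE, 95% interval 0.14 to 1.04, adjusted p = 0.207), and without Dock2-deficient memory library 4 it was 0.75 with an adjusted p of 0.04997 in limma. In wild-type cells the same comparison gave 0.13 ± 0.24 (95% interval -0.38 to 0.64).

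Eif5, which triggers GTP hydrolysis by eIF2 at the start codon, had the highest mean of this group of genes. It averaged 224 ± 38.3 in Dock2-deficient memory, 177 ± 42.9 in Dock2-deficient naive, 203 ± 45.2 in wild-type memory and 191 ± 70.2 in wild-type naive libraries (SD, n = 5, 5, 4 and 4). Its log2 fold change between genotypes was 0.15 ± 0.25 (95% interval -0.37 to 0.67) in memory and -0.06 ± 0.25 (95% interval -0.57 to 0.46) in naive cells. Eif5b, the GTPase that joins the ribosomal subunits, and Eif2a and Eif2d, which can deliver initiator tRNA by other routes, had log2 fold changes of -0.31 ± 0.25 (95% interval -0.83 to 0.21), 0.43 ± 0.21 (95% interval -0.01 to 0.88) and 0.16 ± 0.42 (95% interval -0.71 to 1.03) between genotypes in memory cells. The value above 0 for Eif2d goes against its means of 35.0 ± 5.09 in Dock2-deficient and 38.4 ± 22.1 in wild-type memory libraries (SD, n = 5 and 4), since wild-type memory library 4, at 7.87, weighs more on the log scale. The median over the 11 genes of this role was 0.16 between genotypes in memory cells, 0.09 in naive cells, 0.11 between Dock2-deficient memory and naive cells and 0.13 between wild-type memory and naive cells.

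The scanning factors eIF1 and eIF1A keep the small subunit open while it searches for the start codon. Eif1 (ENSMUSG00000035530, chr11:100319885-100322096, plus strand) was 478, 631, 739, 297.8 and 881 in Dock2-deficient memory libraries, against 415, 379, 366, 423 and 432 in Dock2-deficient naive libraries. Library 4 of the memory group was the lowest of all 18, and the other 4 lay above every naive library of that genotype. The difference was 0.49 ± 0.23 (SE, 95% interval 0.02 to 0.96, adjusted p = 0.344), and without Dock2-deficient memory library 4 it was 0.73 with an adjusted p of 0.0297 in limma. Transcripts that match Eif1 closely summed to 14.8% of its value, so some of its reads are uncertain.

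Eif1ad, which encodes a protein with an eIF1A-like domain, had the lowest fold change between genotypes in memory cells among factors with a mean of at least 50. It was 117, 88.9, 80.8, 129 and 65.5 in Dock2-deficient memory libraries, against 100.3, 140.4, 131 and 264 in wild-type memory libraries. Wild-type memory library 4 lay far above the rest, Dock2-deficient memory library 5 was the lowest of all 18, and the groups overlapped. The difference was -0.67 ± 0.29 (SE, 95% interval -1.27 to -0.06, adjusted p = 0.285). Between memory and naive cells Eif1ad differed by -0.36 ± 0.27 (95% interval -0.93 to 0.21) in Dock2-deficient and 0.45 ± 0.31 (95% interval -0.18 to 1.09) in wild-type mice, and the interaction of -0.81 ± 0.41 (95% interval -1.67 to 0.04) was the lowest of the factors with a mean of at least 50. Without wild-type memory library 4, Eif1ad differed by -0.39 between genotypes in memory cells and by 0.18 between wild-type memory and naive cells, and its interaction was -0.54. Eif1a and its X-linked paralog Eif1ax had differences of 0.31 ± 0.21 (95% interval -0.13 to 0.76) and 0.39 ± 0.24 (95% interval -0.10 to 0.88) between genotypes in memory cells, and Eif1ax had the lowest fold change between wild-type memory and naive cells among factors with a mean of at least 50, at -0.36 ± 0.25 (95% interval -0.88 to 0.16).

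The cap-binding genes included the factor that varied least. Eif4a2 (ENSMUSG00000022884, chr16:23107444-23114136, plus strand), which encodes an eIF4A helicase, was 534, 439, 626, 484 and 594 in Dock2-deficient memory and 443, 450.4, 415, 534 and 443 in Dock2-deficient naive libraries, and 516, 404, 469 and 501 in wild-type memory and 382, 508, 456 and 401 in wild-type naive libraries. It had the smallest spread within groups of all 55, with a standard deviation of 0.17 on the log2 scale. Its difference between genotypes was 0.17 ± 0.16 (95% interval -0.17 to 0.51) in memory and 0.07 ± 0.16 (95% interval -0.27 to 0.41) in naive cells, and between memory and naive cells 0.22 ± 0.15 (95% interval -0.10 to 0.54) in Dock2-deficient and 0.12 ± 0.17 (95% interval -0.24 to 0.48) in wild-type mice, all 4 intervals well inside 2-fold. Eif4b, which stimulates the helicase, was similar, with differences of 0.22 ± 0.17 (95% interval -0.14 to 0.58) in memory and 0.09 ± 0.17 (95% interval -0.27 to 0.45) in naive cells between genotypes.

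Eif4e, the cap-binding protein, averaged 83.4 ± 15.8 in Dock2-deficient memory and 78.6 ± 18.3 in Dock2-deficient naive libraries (SD, n = 5 each), and 95.3 ± 21.1 in wild-type memory and 73.2 ± 9.75 in wild-type naive libraries (SD, n = 4 each). Its difference between wild-type memory and naive cells was 0.36 ± 0.23 (SE, 95% interval -0.12 to 0.84, adjusted p = 0.607). Eif4e2, a cap-binding relative that represses translation, was 129.9, 102, 85.0, 92.2 and 87.1 in Dock2-deficient naive libraries, against 68.7, 68.3, 97.9 and 81.4 in wild-type naive libraries, which overlapped in spite of a difference of 0.32 ± 0.20 (SE, 95% interval -0.09 to 0.74, adjusted p = 0.912). Eif4e3, a low member of the family, was 12.5, 3.70, 6.87, 2.55 and 7.96 in Dock2-deficient memory and 14.7, 18.3, 18.6, 9.63 and 14.9 in Dock2-deficient naive libraries (-1.20 ± 0.50 (SE, 95% interval -2.25 to -0.15, adjusted p = 0.292)). A transcript of the gene model Gm20696 shares 219 bases with Eif4e3 at full identity and had a mean 599% of its value, so Eif4e3 is uncertain.

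The scaffold genes Eif4g1, Eif4g2 and Eif4g3 lay below 0 between genotypes in memory cells, with fold changes of -0.17, -0.13 and -0.45 on the log2 scale. Eif4g3 was 92.3, 48.2, 46.5, 98.7 and 37.2 in Dock2-deficient memory libraries and 71.3, 123, 65.7 and 78.7 in wild-type memory libraries, with overlap (-0.45 ± 0.32 (SE, 95% interval -1.12 to 0.22, adjusted p = 0.474)). In naive cells Eif4g3 and Eif4g2, an eIF4G relative that lacks the site for eIF4E, had the lowest fold changes of the factors with a mean of at least 50, at -0.31 ± 0.32 (95% interval -0.99 to 0.36) and -0.20 ± 0.19 (95% interval -0.60 to 0.19). Without wild-type naive library 1 they were -0.13 and -0.09. Eif4a1, the paralog of Eif4a2, differed by 0.31 ± 0.23 (95% interval -0.17 to 0.79) between genotypes in memory cells, but the pseudogene Eif4a-ps4 is 99.92% identical to it and had a mean of 163 beside 225, so the division of reads between them is uncertain. Eif4a3, a core protein of the exon junction complex, differed by 0.06 ± 0.22 (95% interval -0.39 to 0.52).

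Of the repressors of cap binding, Eif4ebp2 (ENSMUSG00000020091, chr10:61428491-61452661, minus strand), a 4E-binding protein, had the highest mean. It was 40.8, 75.3, 49.8, 98.7 and 49.5 in Dock2-deficient memory and 89.1, 90.4, 79.4, 53.7 and 89.6 in Dock2-deficient naive libraries, and 80.4, 116, 67.0 and 90.0 in wild-type memory and 110.1, 68.7, 68.5 and 77.9 in wild-type naive libraries. Dock2-deficient memory libraries 1, 3 and 5 were the 3 lowest of all 18, and library 4 of that group was among the highest. The difference was -0.53 ± 0.26 (SE, 95% interval -1.08 to 0.02, adjusted p = 0.316) between genotypes in memory cells and -0.40 ± 0.25 (SE, 95% interval -0.92 to 0.12, adjusted p = 0.521) between Dock2-deficient memory and naive cells. Eif4ebp1, the 4E-binding protein most studied as an mTORC1 target, was a low gene here, with a difference of 0.91 ± 0.56 (95% interval -0.27 to 2.09) between genotypes in memory cells. Eif4enif1, which carries eIF4E into the nucleus, was 37.3, 29.6, 25.8, 27.2 and 8.85 in Dock2-deficient memory and 27.4, 41.6, 36.1 and 156 in wild-type memory libraries. The value of wild-type memory library 4 was far above all others and that of Dock2-deficient memory library 5 far below (-1.08 ± 0.45 (SE, 95% interval -2.02 to -0.13, adjusted p = 0.281)).

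Eif5a (ENSMUSG00000078812, chr11:69916714-69921958, minus strand) encodes eIF5A, the hypusine-bearing factor that helps ribosomes through difficult stretches of elongation. It was 433, 692, 842, 502 and 1604 in Dock2-deficient memory and 485, 592, 421, 805 and 663 in Dock2-deficient naive libraries, and 512, 407, 606 and 441 in wild-type memory and 411, 608, 688 and 557 in wild-type naive libraries. Dock2-deficient memory library 5 was far above the next value, that of library 3 of its group, and library 1 lay near the bottom of the 18. The difference was 0.58 ± 0.30 (SE, 95% interval -0.04 to 1.20, adjusted p = 0.329) between genotypes in memory cells and 0.06 ± 0.30 (95% interval -0.56 to 0.68) in naive cells. Eif6, which keeps the large ribosomal subunit from joining too early, averaged 94.0 ± 8.93 in wild-type memory and 115 ± 9.28 in wild-type naive libraries (SD, n = 4 each, log2 fold change -0.28 ± 0.27 (95% interval -0.84 to 0.27)). Between genotypes in memory cells it differed by 0.47 ± 0.25 (95% interval -0.06 to 0.995).

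The spread of the factors was shared across genes within a library. Of the 55 factors, 26 had their highest value of the 18 libraries in Dock2-deficient memory library 5, and 16 their lowest in wild-type naive library 1. The median deviation of the 55 from their own means was 0.53 on the log2 scale in Dock2-deficient memory library 5 and 0.22 in library 3, against -0.35 in wild-type naive library 1, while over all genes tested the medians were 0.01, 0.03 and 0.05. In Dock2-deficient memory library 5 the elongation genes deviated by a median of 1.29, the eIF5A and eIF6 genes by 1.01 and the eIF3 genes by 0.68. The scanning factors deviated by 0.53, the ternary complex genes by 0.44, the cap-binding genes by 0.38 and the elongation factor modifiers by -0.12. The 3 repressors had a median of -0.58, but Eif4ebp1 among them was 17.7 in that library, above its mean of 14.4. Wild-type memory library 4 held the highest value of 8 factors and the lowest of 7. Highest and lowest values were not counted by library over all genes tested. The counts here therefore cannot be read as particular to the factors.

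**Figure D4:**
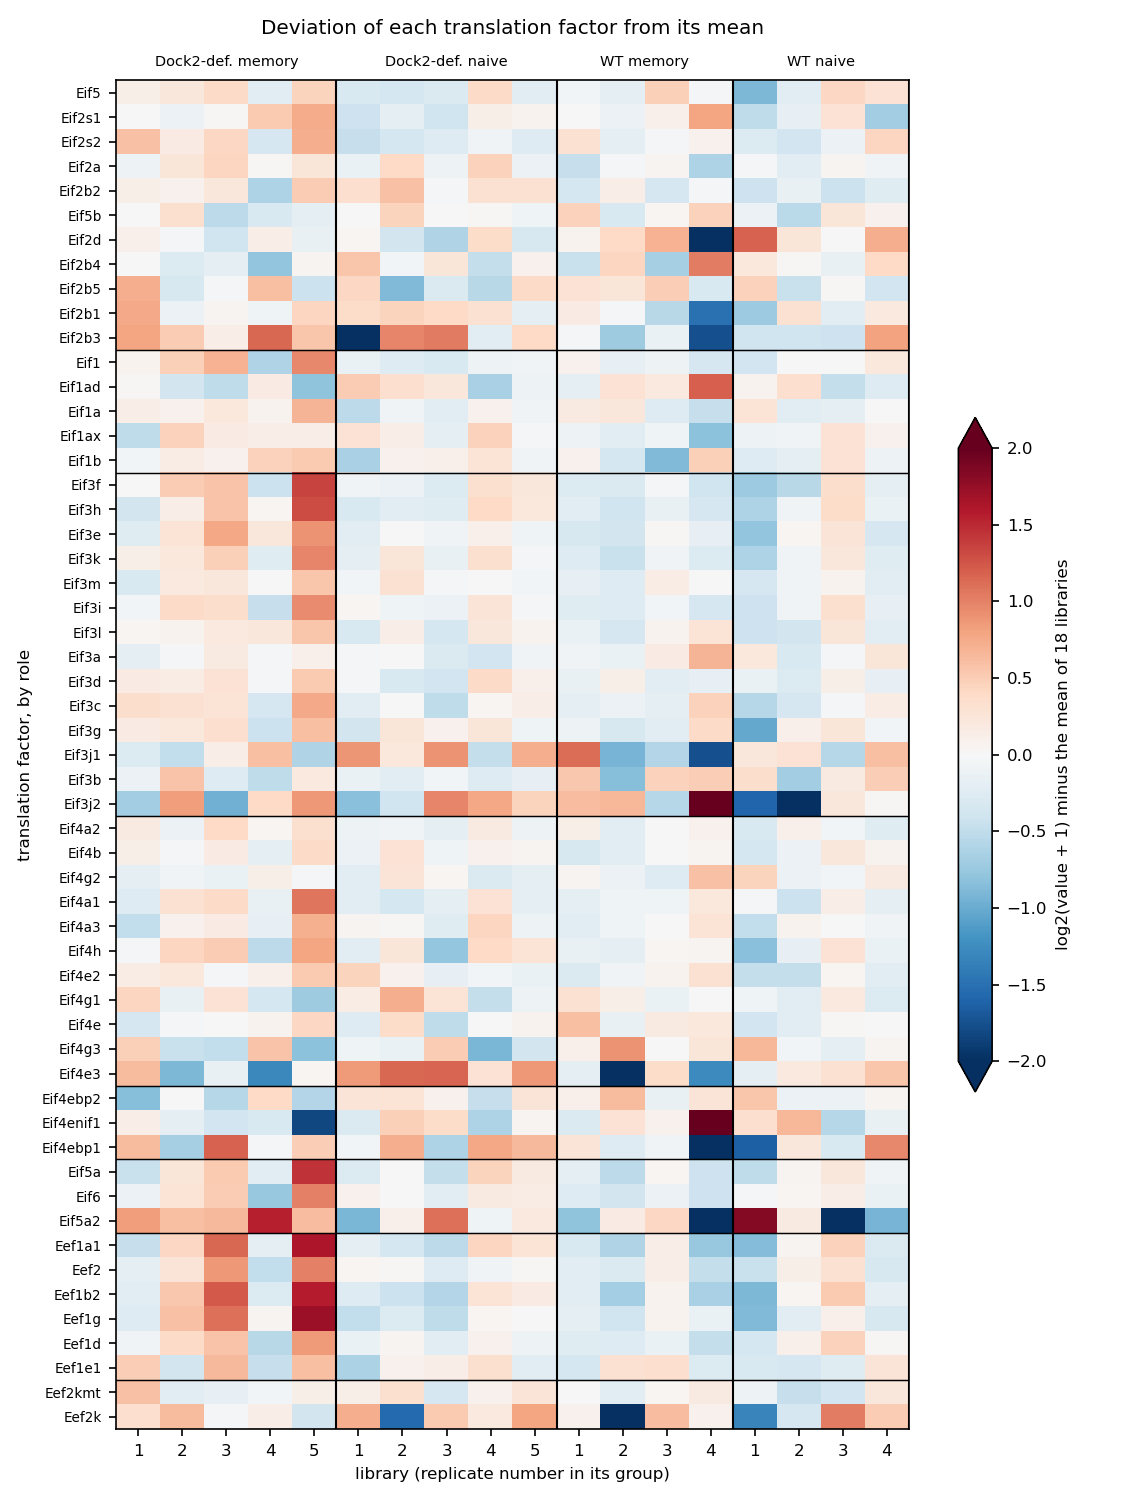
Log2(value + 1) minus the mean of 18 libraries for each of 55 translation factors (rows, grouped by role) in each library (columns, by group and replicate number), red above and blue below the mean. Most elongation and eIF3 rows are red in Dock2-deficient memory libraries 5 and 3, and single low genes stand out in wild-type memory library 4.

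The same libraries differed in ribosomal RNA and in ribosomal protein mRNAs. Rn18s-rs5 took 37.0% of the expected reads in Dock2-deficient memory library 5 and 48.6% in library 3, against 52.1% to 69.4% in the other 16 libraries. The 78 ribosomal protein genes took 30.05% and 25.5% of the other nuclear reads in these 2 libraries, against 10.7% to 22.2% elsewhere. Over the 78 genes, the median log2 fold change was 0.81 between genotypes in memory cells, -0.02 in naive cells, 0.73 between Dock2-deficient memory and naive cells and -0.11 between wild-type memory and naive cells, and 0 of 78 passed in any of them. Across the 18 libraries, log2 Eef1a1 and the share of Rn18s-rs5 had a Pearson correlation of -0.867 (permutation p = 3e-05, adjusted over 4 relations 0.00012) and a Spearman correlation of -0.777 (permutation p = 2e-04, adjusted 8e-04). Without Dock2-deficient memory library 5 and wild-type memory library 4, the libraries farthest from the median share, Pearson's r was -0.740, and within groups it was -0.888. The share is taken from a read total that also holds Eef1a1 and the ribosomal protein genes. A negative relation can therefore come in part from that total, which the permutation does not allow for. The part of ribosomal RNA content in the fold changes was not tested.

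The other 3 relations of Eef1a1 were weaker. With the normalized level of Rn18s-rs5 in place of its share, r was -0.603 (permutation p = 0.00819, adjusted 0.0164) and rho -0.515 (permutation p = 0.0314, adjusted 0.0418), but r was -0.251 without the same 2 libraries, so that relation rests on them. With depth, r was -0.423 (permutation p = 0.08, adjusted 0.107) and rho -0.544 (permutation p = 0.0208, adjusted 0.0416), and r was -0.516 without Dock2-deficient memory library 1 and Dock2-deficient naive library 3. With the mitochondrial share, r was 0.204 (permutation p = 0.418, adjusted 0.418) and rho 0.121 (permutation p = 0.633, adjusted 0.633), and r was -0.07 without Dock2-deficient memory library 3 and wild-type memory library 3.

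**Figure D5:**
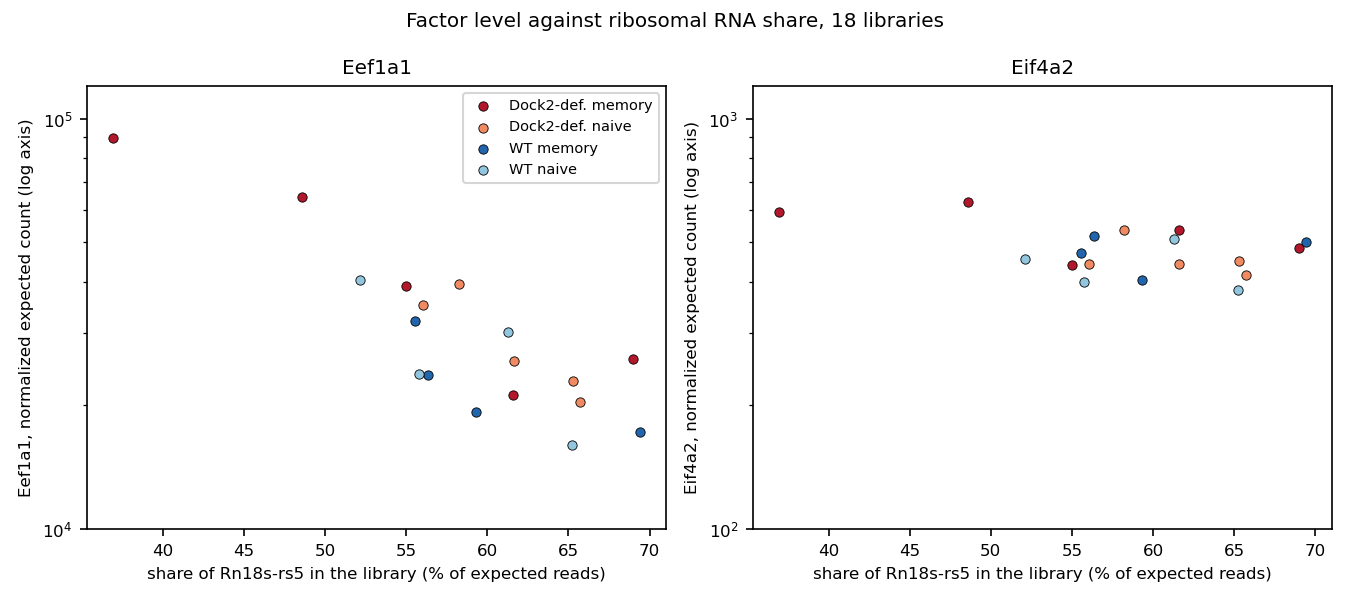
Normalized expected count (log axis) of Eef1a1 (left) and Eif4a2 (right) against the share of Rn18s-rs5 in the expected reads of each of 18 libraries, coloured by group. Eef1a1 is highest, at 89504, where the share is lowest, at 37.0%. Eif4a2, the factor with the smallest spread within groups, lies between 382 and 626. The highest Eif4a2 values, 626 and 594, also belong to the libraries with the lowest shares, 48.6% and 37.0% (Dock2-deficient memory libraries 3 and 5). The relation of Eif4a2 to the share was not tested.

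Rescaling every library to its reads outside Rn18s-rs5 and the mitochondrial genes moved the median of all genes by up to 0.31 on the log2 scale. Under it the median of the 55 factors became -0.01 between genotypes in memory cells, where all genes had -0.27, and -0.16 between Dock2-deficient memory and naive cells, where all genes had -0.31. The factors' median thus lay 0.25 and 0.15 above that of all genes under this scaling, and 0.27 and 0.16 above it with the deposited one. The number of factors above 0 became 26 of 55 between genotypes in memory cells (31.1% of all genes), 17 between Dock2-deficient memory and naive cells (24.2%) and 24 for the interaction (32.3%). Between genotypes in memory cells Eef1b2 became 0.65, Eef1a1 0.59, Eef1g 0.51, Eif3f 0.34 and Eif5a 0.28, still above 0, while Eef1e1 became -0.12 and Eif2s2 -0.02. Without Dock2-deficient memory library 5, Eef1a1 was 0.62, Eef1b2 0.69, Eef1g 0.54 and Eif3f 0.40 in the same comparison.

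The pathways that control these factors were described by their counts. Of 17 tested regulators of mTORC1 and cap binding, Rptor was the only gene to pass in any of the 5 comparisons, and it rose in wild-type memory cells (2.52% of all genes passed in that comparison). Rptor encodes raptor, the subunit of mTORC1 that recruits its substrates, the 4E-binding proteins among them. It was 121, 118, 161 and 155 in wild-type memory libraries, against 22.6, 66.9, 39.1 and 22.6 in wild-type naive libraries, with no overlap, as was so of 4.99% of all genes in the higher direction. In Dock2-deficient cells it was 124, 87.7, 89.4, 116 and 58.4 in memory and 71.8, 17.0, 151, 28.1 and 28.9 in naive libraries, which overlapped. The means were 139 ± 22.4 in memory and 37.8 ± 20.9 in naive libraries (SD, n = 4 each), a log2 fold change of 1.98 ± 0.49 (SE, limma adjusted p = 0.0281). The call was lost when any of 7 of the 8 wild-type libraries was left out, with an adjusted p of up to 0.103 and a log2 fold change of 1.79 to 2.05, and with the scaling above (adjusted p = 0.076, log2 fold change 1.95).

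In the other lists no gene passed in any comparison. These were 9 eIF2 kinases and stress-response genes, 7 genes of hypusine formation, termination and recycling, 8 mitochondrial translation factors and 22 cytosolic aminoacyl-tRNA synthetase genes. Between genotypes in memory cells their median log2 fold changes were -0.01, 0.26, -0.29 and 0.15, and between Dock2-deficient memory and naive cells -0.19, 0.24, -0.09 and 0.12. In naive cells between genotypes they were -0.02, -0.12, 0.13 and 0.15, and between wild-type memory and naive cells -0.08, -0.25, 0.32 and 0.13. At an unadjusted p under 0.05 these lists together held 6 of 46 genes between genotypes in memory cells (16.4% of all genes, either direction), 4 in naive cells (6.1%), 3 between Dock2-deficient memory and naive cells (13.4%), 4 between wild-type memory and naive cells (12.1%) and 5 for the interaction (5.21%).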

How the data were processed

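Per the labels' protocols, a Qiagen RNAeasy kit was used for extraction and Smartseq2, which amplifies whole cDNAs without keeping strand, for the libraries. The deposited table holds a normalized signal per gene, which by its values is RSEM expected counts scaled by a factor per library, and the authors used RSEM, bcl2fastq, FastQC and the mm10 build, per the submitters' processing notes. Versions, annotation and aligner are not given in the sources used here. Every value lay on a grid of 0.01 reads divided by a library's factor, from which depth was read back. Symbols and identifiers came from the table, and positions, median lengths of protein-coding transcripts and near-identical copies (at least 95% over 200 bases) from GENCODE M21, which held 98.9% of the identifiers.

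The test was limma 3.58.1 (trend) in R 4.3.3 on log2(value + 1), as 1 model with a mean per group over 18 libraries and 14 residual degrees of freedom, for the 9437 genes that reached 10 in 4 or more libraries. Tests were two-sided with Benjamini-Hochberg adjustment over all genes and a threshold of 0.05, and fold changes of low genes are understated on this scale. A positive fold change means higher in Dock2-deficient than in wild-type cells, or in memory than in naive cells. Correlations used 100000 permutations in scipy 1.17.1, with Python 3.11.15. Replicates of a group differed beyond sampling noise (chi-square per degree of freedom at least 5.02), so no library was treated as deposited more than once, which does not show that they came from separate RNA. Count models were not run, although expected reads could be read back from the deposited values. Groups were taken from the titles. Alternatives were another scaling, pseudocount, filter, variance model and set of groups, a replicate block and leaving out libraries.

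The members, the role and pathway lists and the tests were chosen with earlier results of these data known. Named by rule were, in each comparison, the 3 highest and 3 lowest factors by log2 fold change, of those averaging 50 or more, the factor with the highest mean in each role, and pathway genes that passed the test. Other factors were named after their values were seen.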

Additional observations from a re-analysis of the deposited data

Results flagged for a closer look

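In 12 of the 220 combinations of a factor and a group, a library stood apart from the rest of its group by Dixon's criterion, and chance gives about 1 in 20. In Dock2-deficient memory cells, library 5 was high for Eif1a (123 normalized expected counts) and library 4 for Eif5a2 (29.8). In Dock2-deficient naive cells, library 4 was high for Eif5 (253) and Eif4a1 (267), library 2 for Eif3m (451) and Eif5b (58.2), and library 5 was low for Eif2b1 (31.9). In wild-type memory cells, library 4 was high for Eif4enif1 (156) and Eif3c (221), and library 2 was low for Eif3b (14.5). In wild-type naive cells, library 4 was high for Eef1e1 (49.7) and Eif2b3 (30.5).

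Eif2s3y, the Y-linked gene for the gamma subunit of eIF2, was left out of the factors by name. It was at 10 or above in 8 of the 10 Dock2-deficient libraries and at 0 in all wild-type libraries, the same split as that of Xist.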

How the results depend on the processing

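No factor passed in any comparison under another scaling, pseudocount 5, no filter on low values, only the 2 groups compared (not run for the interaction), no variance trend, or with 2 outlying memory libraries left out together (Dock2-deficient library 5 and wild-type library 4). Leaving out libraries in turn gave 0 to 2 called factors between Dock2-deficient memory and naive cells (Eef1g without Dock2-deficient memory library 1, Eif1 and Eif2s2 without library 4) and 0 elsewhere. Scaling to reads outside Rn18s-rs5 and mitochondrial genes reversed the sign of the factors' median, to -0.16 between Dock2-deficient memory and naive cells, -0.014 between genotypes in memory cells and -0.094 for the interaction, as it lowered all genes. Leaving out libraries in turn, the median ranged from -0.04 to 0.09 between wild-type memory and naive cells and from 0.01 to 0.16 between genotypes in naive cells. The direction of each factor named by rule did not change under any alternative in its own comparison. Rptor lost its call with no filter (adjusted p = 0.0863), with no variance trend (0.0538) and without both outlying libraries (0.0662).

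Counts over all genes between genotypes in memory cells were 12 with pseudocount 5, 10 with no filter, 3 with only the 2 groups, 11 with no trend and 3 to 13 with a library left out. In naive cells the count was 8 with only the 2 groups. For the interaction it was 0 with no filter, 9 with no trend, 0 without both libraries and 0 to 2 with a library left out. The cause of these shifts was not tested.

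The replicate numbers did not meet the criterion for pairing libraries, a correlation over 0.1 in every pair. Deviations of same-numbered libraries correlated by -0.39 to 0.51 over 3840 genes in Dock2-deficient and -0.12 to 0.32 in wild-type mice, and 2 of 5 and 1 of 4 libraries correlated best with their own number. The libraries of the Dock2-deficient groups with Eif2s3y at 0 were both number 1, so same-numbered libraries may share a mouse, which the labels do not say. With the replicate block, 0 factors passed in any comparison. All genes called were then 196 between wild-type memory and naive cells, 218 between Dock2-deficient memory and naive cells and 0 for the interaction. In both genotype comparisons the count was 0, but that fit held 8 libraries and so left out Dock2-deficient library 5 as well.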
